A study of Mus musculus with 32 samples.

Results

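Catsper1, Catsper2, Catsper3, Catsper4, Tssk3, Akap3, Odf1, Ddx25, Adam2 and Ldhc are 10 mouse genes known for their work in sperm, and they were followed here through the Polycomb marks of developing oocytes. They were selected on gene identity with the peak calls of these lists already known, and are 10 of 21883 protein-coding genes that RefSeq annotates on the main chromosomes of GRCm38. Each gene was read over a window of its annotated span plus 5 kb to each side. The peaks touching that window, the share of the window they cover, and the total and highest signal of those peaks (the 4th and 5th columns of the authors' lists) are the values given. These same values served to choose the genes, so they are given as a description and no test was run on them. The label of the set calls the genes silenced in oocytes, but peak lists hold no RNA, so silence itself was not measured here.

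H3K27me3 and H2AK119ub were profiled by CUT&Tag, in which an antibody brings a transposase to chromatin carrying a mark and the DNA nearby is cut and tagged for sequencing. The 32 samples were primary oocytes from mouse ovary in 16 groups of 2, with 10 groups for H3K27me3 and 6 for H2AK119ub, and the authors deposited 1 peak list per group. Wild-type (WT) oocytes were taken for both marks shortly before birth (E18.5), on postnatal day 1 (P1), on day 6 while not growing (P6) and on day 7 once growing (P7). PRC1ctrl (Ring1-/-; Rnf2F/+; Ddx4-Cre) and PRC1cKO oocytes were profiled for H3K27me3 at P6 and P7. PRC2ctrl (EedF/+; Ddx4-Cre) and PRC2cKO (EedF/-; Ddx4-Cre) oocytes were profiled for both marks at P6. Ddx4-Cre is a recombinase driven by a germ cell gene, and both arms of each knockout pair carry it by their labels. The PRC1 control also lacks Ring1 altogether, so it is not a wild type for PRC1. The genotype label of PRC1cKO, Ring1-/-; Ring1F/-; Ddx4-Cre, puts Ring1 where the control has Rnf2, and which allele was floxed was not settled. Whether the 2 samples of a group came from separate animals, and how they were combined into 1 list, is not given in the sources used here. No difference below therefore has a replicate check, and none has a p-value.

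Polycomb repressive complex 1 (PRC1) places ubiquitin on a lysine of histone H2A (H2AK119ub), and Polycomb repressive complex 2 (PRC2), of which Eed is a core subunit, methylates a lysine of histone H3 (H3K27me3). Both marks are found at genes held off in a cell type, and each complex can bind the mark of the other. Sperm genes are transcribed in the testis, most of them late in spermatogenesis. CATSPER1 to CATSPER4 form the pore of a calcium channel of the sperm tail that is needed for hyperactivated swimming. TSSK3 is a testis-specific serine kinase, AKAP3 anchors protein kinase A in the fibrous sheath of the tail, and ODF1 belongs to the outer dense fibres. DDX25 is an RNA helicase of spermatids, ADAM2 is a surface protein of sperm needed for fertilisation, and LDHC is the lactate dehydrogenase of sperm.

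Promoter sequences (250 bases before to 50 after the start site, RefSeq GRCm38.p6) were matched for 7 of the 10 genes. The sequences of 6 are shown because they span the range of CpG content and of marking: Catsper2 and Ddx25, which had no H3K27me3 peak in any list, Akap3, whose window had one in every list, and Catsper4, Tssk3 and Ldhc, where peaks came and went. Capitals mark CpG dinucleotides, and each sequence reads 5′ to 3′ on the strand of its gene.
Catsper2 (chr2:121413743-121414042, minus strand): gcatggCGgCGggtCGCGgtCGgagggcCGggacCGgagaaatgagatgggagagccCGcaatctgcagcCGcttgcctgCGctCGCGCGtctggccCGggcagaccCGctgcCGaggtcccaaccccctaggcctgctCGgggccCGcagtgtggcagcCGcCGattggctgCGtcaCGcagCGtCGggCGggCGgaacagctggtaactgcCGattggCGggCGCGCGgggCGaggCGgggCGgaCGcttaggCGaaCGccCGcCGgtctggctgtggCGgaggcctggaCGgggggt
Ddx25 (chr9:35558421-35558720, minus strand): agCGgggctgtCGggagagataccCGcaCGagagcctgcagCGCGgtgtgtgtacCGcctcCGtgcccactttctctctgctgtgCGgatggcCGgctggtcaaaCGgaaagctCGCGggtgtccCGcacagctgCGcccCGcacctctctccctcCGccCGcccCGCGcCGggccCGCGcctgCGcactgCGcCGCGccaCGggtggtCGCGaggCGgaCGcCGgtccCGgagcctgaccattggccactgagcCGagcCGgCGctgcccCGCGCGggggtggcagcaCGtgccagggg
Akap3 (chr6:126852848-126853147, plus strand): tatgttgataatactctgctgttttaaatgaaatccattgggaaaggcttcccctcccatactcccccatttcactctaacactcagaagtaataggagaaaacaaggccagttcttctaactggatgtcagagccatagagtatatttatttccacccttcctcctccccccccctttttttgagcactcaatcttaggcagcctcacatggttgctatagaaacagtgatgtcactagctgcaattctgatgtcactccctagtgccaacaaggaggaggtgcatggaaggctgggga
Catsper4 (chr4:134227334-134227633, minus strand): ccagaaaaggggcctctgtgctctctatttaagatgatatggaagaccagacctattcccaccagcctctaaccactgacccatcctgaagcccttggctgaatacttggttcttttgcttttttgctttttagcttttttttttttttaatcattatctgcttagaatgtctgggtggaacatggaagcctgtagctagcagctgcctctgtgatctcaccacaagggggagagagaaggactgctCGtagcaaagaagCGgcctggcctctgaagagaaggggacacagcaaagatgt
Tssk3 (chr4:129490721-129491020, minus strand): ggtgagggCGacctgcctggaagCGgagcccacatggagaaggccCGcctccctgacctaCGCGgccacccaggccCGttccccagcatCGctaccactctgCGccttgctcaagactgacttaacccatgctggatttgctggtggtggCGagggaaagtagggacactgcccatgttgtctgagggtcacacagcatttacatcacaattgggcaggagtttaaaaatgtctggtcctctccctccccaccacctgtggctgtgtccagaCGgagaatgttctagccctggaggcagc
Ldhc (chr7:46861013-46861312, plus strand): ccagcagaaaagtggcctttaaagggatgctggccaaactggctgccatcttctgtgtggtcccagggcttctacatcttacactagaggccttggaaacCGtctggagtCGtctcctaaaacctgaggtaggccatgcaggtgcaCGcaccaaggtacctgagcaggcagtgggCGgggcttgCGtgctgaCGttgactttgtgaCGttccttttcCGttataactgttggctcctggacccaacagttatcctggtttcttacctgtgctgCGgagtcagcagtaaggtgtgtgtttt

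The capitals set 2 of these sequences apart. The Catsper2 and Ddx25 promoters held 41 CpG each, at the 96.0th percentile of all 17491 promoters, whose median was 13. Tssk3 held 10, Ldhc 9, Catsper3 3, Catsper4 2 and Akap3 0. The promoter of Akap3 lay in an H3K27me3 peak in 6 of 10 lists, that of Tssk3 in 6, Catsper4 in 4 and Catsper3 in 2, and those of Catsper2, Ddx25 and Ldhc in 0. H2AK119ub peaks held the Tssk3 promoter in 6 of 6 lists, Catsper4 in 5, Ldhc in 4, Akap3, Catsper3 and Ddx25 in 3 each, and Catsper2 in 0. Over all promoters at WT P6, 36.0% of those with 0 to 5 CpG touched an H3K27me3 peak (exact Clopper-Pearson 95% interval 34.8 to 37.3%, counting error only), and 22.6% (21.3 to 23.9%) of those with 26 or more. Promoters with 6 to 15 CpG, such as those of Tssk3 and Ldhc, did so in 47.7% (46.1 to 49.3%). For H2AK119ub at WT P6 the order of the outer classes was the opposite, with 40.3% (39.0 to 41.6%) of promoters at 0 to 5 CpG, 65.2% (63.7 to 66.7%) at 6 to 15 and 52.0% (50.4 to 53.6%) at 26 or more. The Ddx25 promoter held 1 E-box (CACGTG, found in 7.9% of promoters on either strand), Catsper2 held 1 TGACG and Ldhc held 2, the short CRE motif, found in 23.8%. The full CRE TGACGTCA (2.34%, which contains the short one) and TTCCCGCC, an E2F motif (2.89%), were in none of the 7 windows, and a match or its absence says nothing on binding.

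The sperm genes fell into 4 patterns of H3K27me3. Catsper1, Catsper3, Akap3, Odf1 and Adam2 had a peak in all 10 lists, as did 36.0% of all genes. Catsper4, Tssk3 and Ldhc had one in 6, 7 and 4 lists. Ddx25 had none in any H3K27me3 list but had H2AK119ub peaks in 5 of 6 lists. Of all genes, 17.1% likewise had no H3K27me3 peak in any list and an H2AK119ub peak in at least 1. Catsper2 had no peak of either mark in all 16 lists, a class that held 8.88% of all genes. In the WT lists, from E18.5 to P7 in order, H3K27me3 peaks touched 6, 6, 8 and 7 of the 10 genes, against 55.3%, 54.5%, 56.7% and 59.6% of all genes. H2AK119ub peaks touched 9, 9, 9 and 7, against 78.2%, 71.4%, 76.7% and 62.2%. At each WT stage, none of the 10 carried H3K27me3 without H2AK119ub. That class held only 5.56 to 8.94% of all genes, so its absence among 10 genes does not set them apart.

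**Figure D1:**
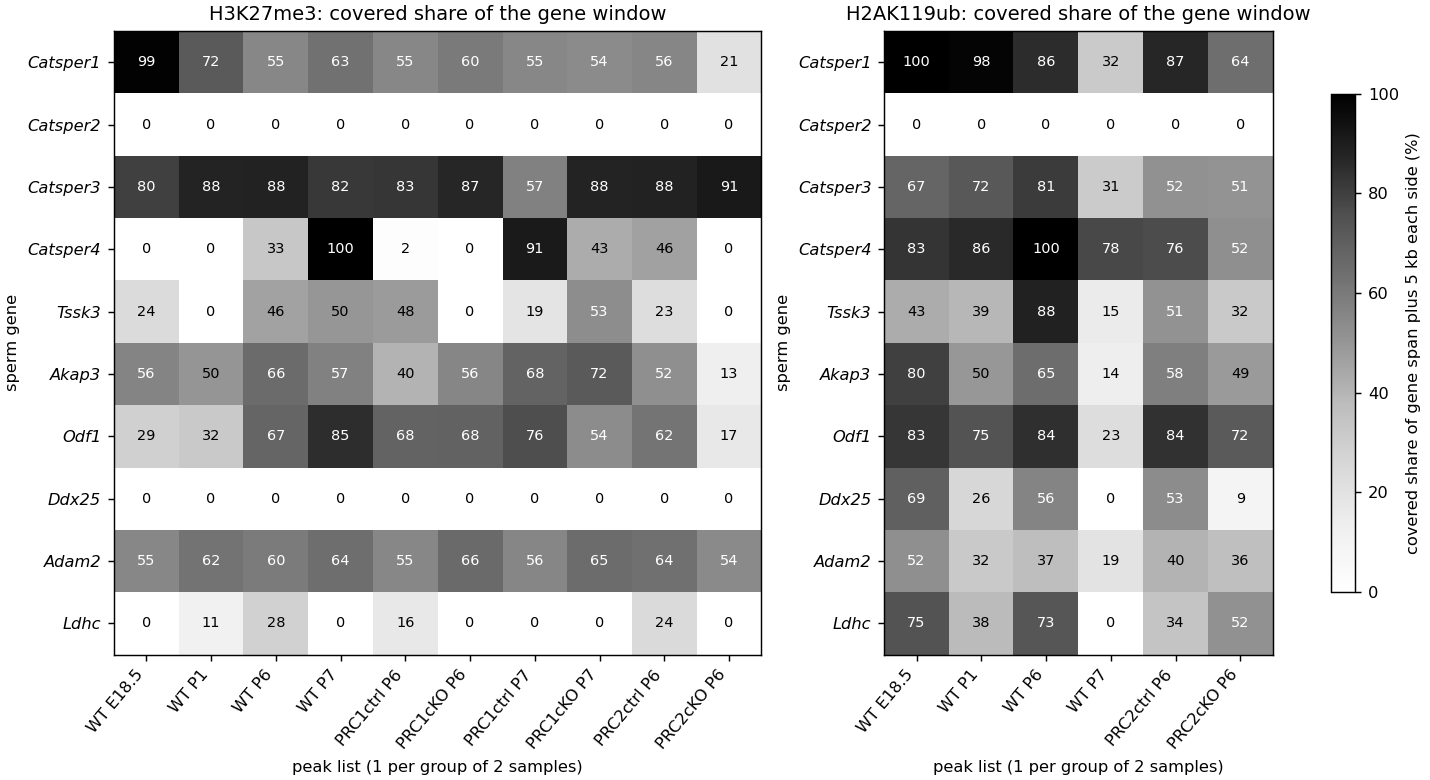
Heat map of the share of each gene window (span plus 5 kb each side, in %) covered by peaks, with the 10 sperm genes in rows and the peak lists in columns (left, 10 H3K27me3 lists; right, 6 H2AK119ub lists; 1 list per group of 2 samples). Catsper2 is at 0 throughout, Ddx25 is at 0 for H3K27me3, and the WT P7 column of H2AK119ub is the palest for 8 genes with peaks.

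The lists themselves differed, which bears on every comparison. They held 49615 to 83994 peaks and covered 244.2 to 728.3 Mb, and read depth is unknown. The WT P7 list of H2AK119ub covered 244.2 Mb, against 728.3 Mb at P6, and the PRC2cKO list of H3K27me3 covered 428.6 Mb, against 558.4 Mb in PRC2ctrl. The part of this in the results was not tested. As a check of the label, 9 oocyte genes and 5 granulosa genes were read in the same way. From E18.5 to P7 in the WT lists, H3K27me3 touched 6, 3, 1 and 2 of the 9 oocyte genes, with Ddx4 among them at each stage and Nobox, Sohlh1, Gdf9 and Zp3 among the 6 at E18.5. It touched 5 of 5 granulosa genes at all 4 WT stages, and 2, 2, 2 and 3 of 4 blood and endothelial genes. H2AK119ub touched 9, 4, 7 and 4 of the 9 oocyte genes and 5 of 5 granulosa genes at each stage. Of all genes, H3K27me3 touched 55.3%, 54.5%, 56.7% and 59.6% at these stages, and H2AK119ub 78.2%, 71.4%, 76.7% and 62.2%. Peaks thus lay on some genes of the oocyte itself too, most often at E18.5. For H3K27me3 that count was near the share of all genes at E18.5, and below it at P1, P6 and P7.

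Of the pore subunits of the sperm channel, Catsper1 (chr19:5335615-5344281, the window also holds Cst6) was the most broadly covered before birth. H3K27me3 covered 98.9% of its window at WT E18.5, 71.8% at P1, 55.2% at P6 and 63.1% at P7. The fall of 27.0 points from E18.5 to P1 passed the 25 points required here before a gene is said to rise or fall, and it was the only such call among the 10 genes at that step, where 2.29% of all genes rose and 1.07% fell. In PRC1ctrl and PRC1cKO the share was 55.4% and 59.9% at P6, and 55.4% and 53.8% at P7. PRC2ctrl had 55.5% and PRC2cKO 20.7%. The PRC2cKO list is thus the lowest of the 10 for Catsper1, with every other list at 53.8% or above. In each of these lists a peak overlapped both Catsper1 and Cst6. The window of Cst6 was covered to 53.0% in PRC2cKO and to 91.1 to 100% in the other lists, so the 2 genes are not separate observations. H2AK119ub covered 99.7%, 98.1%, 85.5% and 31.6% of the Catsper1 window over the 4 WT stages, and 87.0% and 64.2% in PRC2ctrl and PRC2cKO.

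Catsper2 (chr2:121391633-121414598, window shared with Pdia3) was untouched in all 16 lists. The nearest H3K27me3 peak lay 0.631 to 6.58 kb outside its window (median 4.6 kb) and the nearest H2AK119ub peak 1.99 to 6.27 kb outside. Pdia3, a protein disulfide isomerase of the endoplasmic reticulum, also had no H3K27me3 peak in any of the 10 lists, and had H2AK119ub peaks in 5 of 6.

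Catsper3 (chr13:55784500-55824048, window shared with Pitx1) lay in the strongest domain of the set. H3K27me3 covered between 57.1 and 91.2% of its window (median 87.2%) over the 10 lists. A single peak of 60.8 to 84.7 kb made up most of this, and its total signal stood at the 99.2nd to 99.9th percentile of its list. The highest signal of the peak was 5.25 to 44.8 times the lowest such value in its own list. The same peak ran on over Pitx1, a homeobox factor of limb and pituitary, whose own window was covered to 100% in all 10 lists. The start site of Catsper3 itself was inside a peak in 2 of 10 lists. In PRC2cKO the domain reached it, and in PRC1ctrl at P6 a separate peak of 6.29 kb did. In the other lists every peak began downstream of it. Catsper3 and Pitx1 thus share 1 domain and are not separate observations.

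Catsper4 (chr4:134211965-134227431, window shared with Cnksr1) had the widest spread of H3K27me3. Its window was covered to 0% at WT E18.5, 0% at P1, 33.1% at P6 and 100% at P7. The share rose by 33.1 points from P1 to P6 and by 66.9 points from P6 to P7. At P7 a single peak of 40.4 kb ran over the gene and Cnksr1, a scaffold protein gene, and its total signal was at the 96.8th percentile. PRC1ctrl showed the same order, with 1.82% at P6 and 90.8% at P7, a rise of 89.0 points. PRC1cKO had 0% at P6 and 42.8% at P7, and PRC2ctrl and PRC2cKO had 46.2% and 0%. The growing WT and PRC1ctrl groups are thus at 100% and 90.8%, and the 3 non-growing WT and control groups between 1.82 and 46.2%. H2AK119ub was already there when H3K27me3 was not, at 83.2% at E18.5 and 86.1% at P1, followed by 100% at P6 and 77.5% at P7. Of the 9 genes with peaks, Catsper4 kept the largest H2AK119ub share at P7. In PRC2ctrl and PRC2cKO, H2AK119ub covered 76.4% and 52.2%. Cnksr1 had H3K27me3 in the same number of lists, 6 of 10, with 0 to 84.2% of its window covered.

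**Figure D2:**
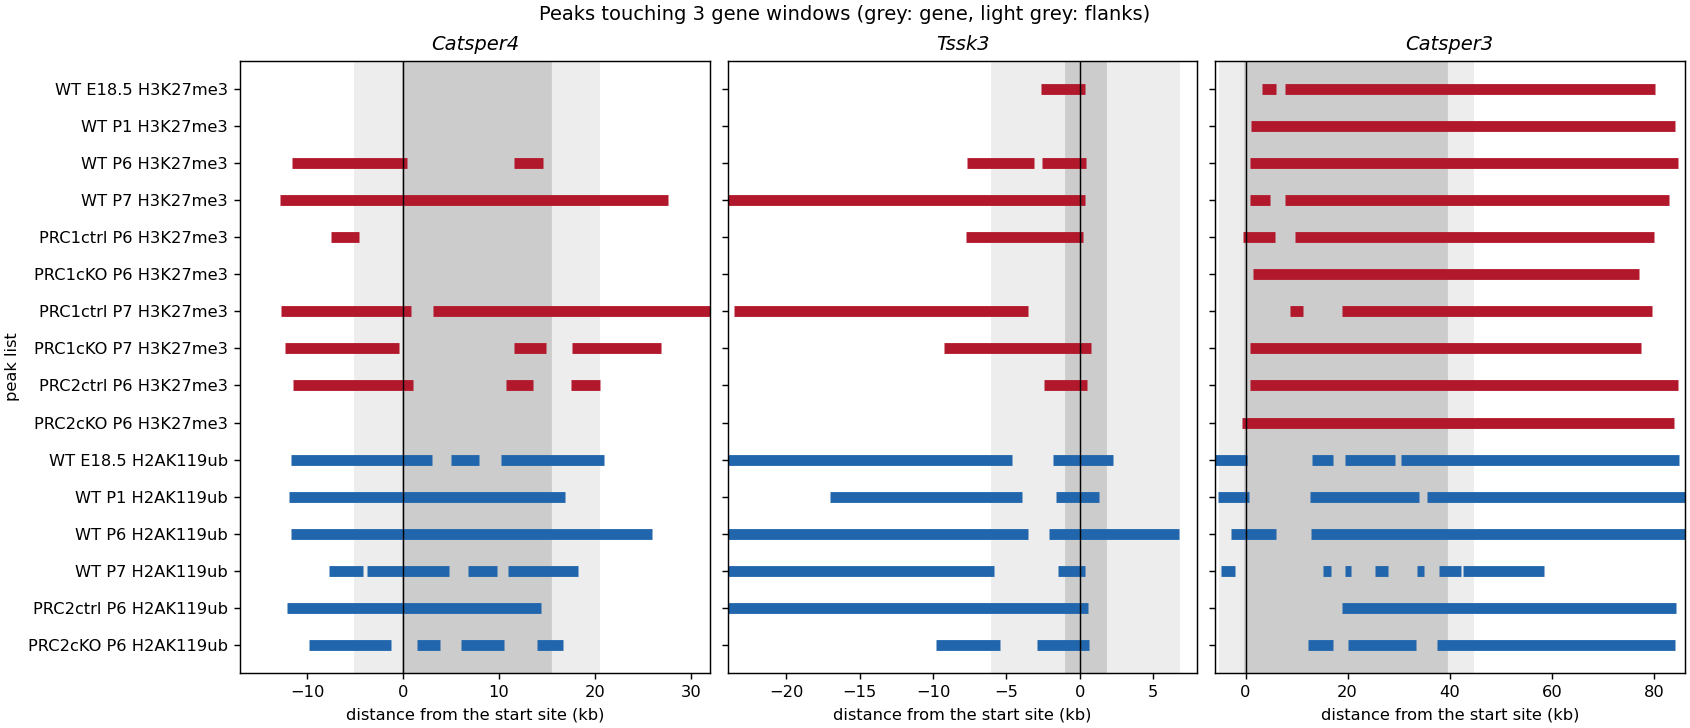
Peaks touching the windows of Catsper4, Tssk3 and Catsper3, 1 row per list (red H3K27me3, blue H2AK119ub), against distance from the start site in kb along the direction of transcription (dark grey gene span, light grey 5 kb flanks; peaks are clipped at the panel edges). Catsper4 is bare of H3K27me3 at WT E18.5 and P1 and lies within a single 40.4 kb peak at P7, while the Catsper3 domain of 60.8 to 84.7 kb is in every H3K27me3 row.

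Tssk3 (chr4:129489008-129491730, window shared with Bsdc1 and Fam229a) is a short gene whose H3K27me3 peaks lay over the start site in 6 of the 7 lists that had one. H3K27me3 covered 23.8% of its window at WT E18.5, 0% at P1, 45.8% at P6 and 49.7% at P7, a rise of 45.8 points from P1 to P6. In the 3 lists without a peak, WT P1, PRC1cKO P6 and PRC2cKO P6, the nearest one lay 58.0 to 74.9 kb away. PRC1ctrl had 48.4% at P6 and 19.0% at P7, and PRC1cKO had 0% and 52.9%. PRC2ctrl had 23.0%, 22.8 points under WT P6, and PRC2cKO had 0%. The control lists of Tssk3 at P6 thus ranged from 23.0 to 48.4%, and both knockout lists at P6 were at 0. H2AK119ub covered 42.6%, 39.2%, 88.5% and 15.0% over the WT stages, and lay over the start site in all 6 lists. Fam229a, whose span overlaps the Tssk3 window, had H3K27me3 in 7 of 10 lists as well, and the peak over the Tssk3 start site overlapped both genes.

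Akap3 and Odf1 encode structural proteins of the sperm tail, and both had H3K27me3 in every list. For Akap3 (chr6:126853098-126874308, window shared with Ndufa9 and Dyrk4) the share was 56.2%, 50%, 65.6% and 57.1% over the WT stages. It was 40.5% and 55.5% in PRC1ctrl and PRC1cKO at P6, and 68.0% and 71.5% at P7. PRC2ctrl had 52.3% and PRC2cKO 13.2%, the lowest of the 10. For Odf1 (chr15:38219203-38226735, no other gene in the window) the WT shares were 28.7%, 31.8%, 67.3% and 85.1%, each stage at or above the one before. PRC1ctrl and PRC1cKO had 68.2% and 68.4% at P6, and 75.8% and 53.5% at P7. PRC2ctrl had 61.8% and PRC2cKO 16.6%. Both genes had their lowest value of the 10 lists in PRC2cKO. H2AK119ub covered 79.9%, 49.6%, 64.7% and 13.6% of the Akap3 window over the WT stages, and 82.7%, 74.6%, 84.5% and 22.8% of the Odf1 window.

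Ddx25 (chr9:35541848-35558470, window shared with Pus3 and Hyls1), the helicase gene with the CpG-rich promoter shown above, carried H2AK119ub alone. The share was 69.3% at WT E18.5, 25.9% at P1, 56.2% at P6 and 0% at P7, and it was 53.3% in PRC2ctrl and 9.27% in PRC2cKO. The H2AK119ub peak of Ddx25 with the highest signal stood at the 10.6th to 41.7th percentile of highest signal in its lists. By total signal the same peaks stood at the 3.95th to 80.0th percentile, the upper end being the WT E18.5 peak of 18.4 kb. No H3K27me3 peak touched the window in 10 lists, and the nearest lay 1.33 to 19.0 kb outside (median 17.95 kb). Pus3, a pseudouridine synthase gene that overlaps the window, also had no H3K27me3 in any list.

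Adam2 (chr14:66027322-66077851, no other gene in the window) had the least variable H3K27me3. The share lay between 54.2 and 65.7% (median 60.9%) over all 10 lists, with 54.2% in PRC2cKO and 63.6% in PRC2ctrl. Its coverage was split over 2 to 5 peaks, the strongest at the 62.6th to 98.0th percentile of highest signal and the 87.5th to 96.4th of total signal. H2AK119ub covered less, 19.3 to 52.2% over 6 lists. Adam2 and Catsper3 were the 2 genes with peaks in which the PRC2cKO share of H3K27me3 stayed within 10 points of its control, apart from the genes at 0 in both.

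Ldhc (chr7:46861263-46878147, no other gene in the window) had the least H3K27me3 of the genes with any. The share was 0%, 11.3%, 28.4% and 0% over the WT stages, 16.5% and 24.1% in PRC1ctrl and PRC2ctrl at P6, and 0% in the other 4 knockout or P7 lists. All 4 lists with a peak were of P1 or non-growing P6 oocytes, and none of the peaks lay over the start site. They stood at the 6.2nd to 52.7th percentile of highest signal and the 13.0th to 57.1st of total signal. H2AK119ub covered 74.6% at E18.5, 38.2% at P1, 73.4% at P6 and 0% at P7. At E18.5 and P6 that mark came as a peak of 43.0 and 40.5 kb that ran over Ldha, the gene of the widely expressed lactate dehydrogenase, and the start of Ldhc.

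Over WT development the 10 genes were compared stage by stage, so that the P1 and P6 lists each enter 2 steps. From P1 to P6, H3K27me3 rose at 3 of them (Catsper4, Tssk3 and Odf1, the last by 35.5 points) and fell at 0, while 4.26% of all genes rose and 2.74% fell. The median change was 8.02 points over the 10 genes and 0 over all genes. Catsper4 was at 22.2% at P6 when the gene span alone was read, and at 21.2% with the stronger peaks by median total signal, and then missed the call, as did Tssk3 (0%) in the latter. Under equal covered length (428.6 Mb for each H3K27me3 list, keeping the peaks of largest total signal), Catsper4 (21.2%) and Tssk3 (22.2%) missed it as well, Odf1 kept it, and Akap3 and Ldhc gained one. From P6 to P7 it rose at 1 (Catsper4) and fell at 1 (Ldhc, by 28.4 points), against 11.7% and 5.16% of all genes. The rise of Catsper4 at this step met the threshold of 25 points under each window and trimming tried. H2AK119ub fell at Akap3, Ddx25 and Ldhc from E18.5 to P1 and rose at 0, against 14.3% and 2.12% of all genes. It then rose at Tssk3 (by 49.3 points), Ddx25 (30.4) and Ldhc (35.2) from P1 to P6 and fell at 0, against 13.8% and 2.94%. Ddx25 and Ldhc were thus low at P1 between higher values on either side. So was the median share of all genes, at 35.7%, 23.5% and 35.7% from E18.5 to P6. With the gene span alone all 3 of these rises missed the call, at 83.4% and 100% for Tssk3, 37.7% and 49.8% for Ddx25, and 38.7% and 57.7% for Ldhc. Under equal covered length (244.2 Mb for H2AK119ub) 1 of the 3 was kept, Ldhc, while Catsper1 and Akap3 fell. At the step before, the same trimming left the fall of Ldhc and made rises of Catsper3 and Catsper4. From P6 to P7, H2AK119ub fell at 7 of the 10 genes and rose at 0, with a median change of -52.5 points. Over all genes 43.1% fell and 0.151% rose, with a median of -19.1. The 10 genes also started higher at P6, with a median covered share of 77.3%, against 35.7% over all genes. A gene under 25% at P6 could not fall by 25 points. The largest falls were at Tssk3 (73.5 points) and Ldhc (73.4 points). With both lists at 244.2 Mb, 2 of the 10 genes fell (Catsper3 and Ldhc) and 1 rose (Catsper1), so 5 of the 7 falls were not kept under equal covered length. Only the P6 list was cut for this, to the 5030 of its 61419 peaks with the largest total signal, while P7 kept all 80950. That left 3 of the 10 genes with a peak at P6, and a gene without one could not fall. The lost calls therefore do not show whether those genes fell.

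**Figure D3:**
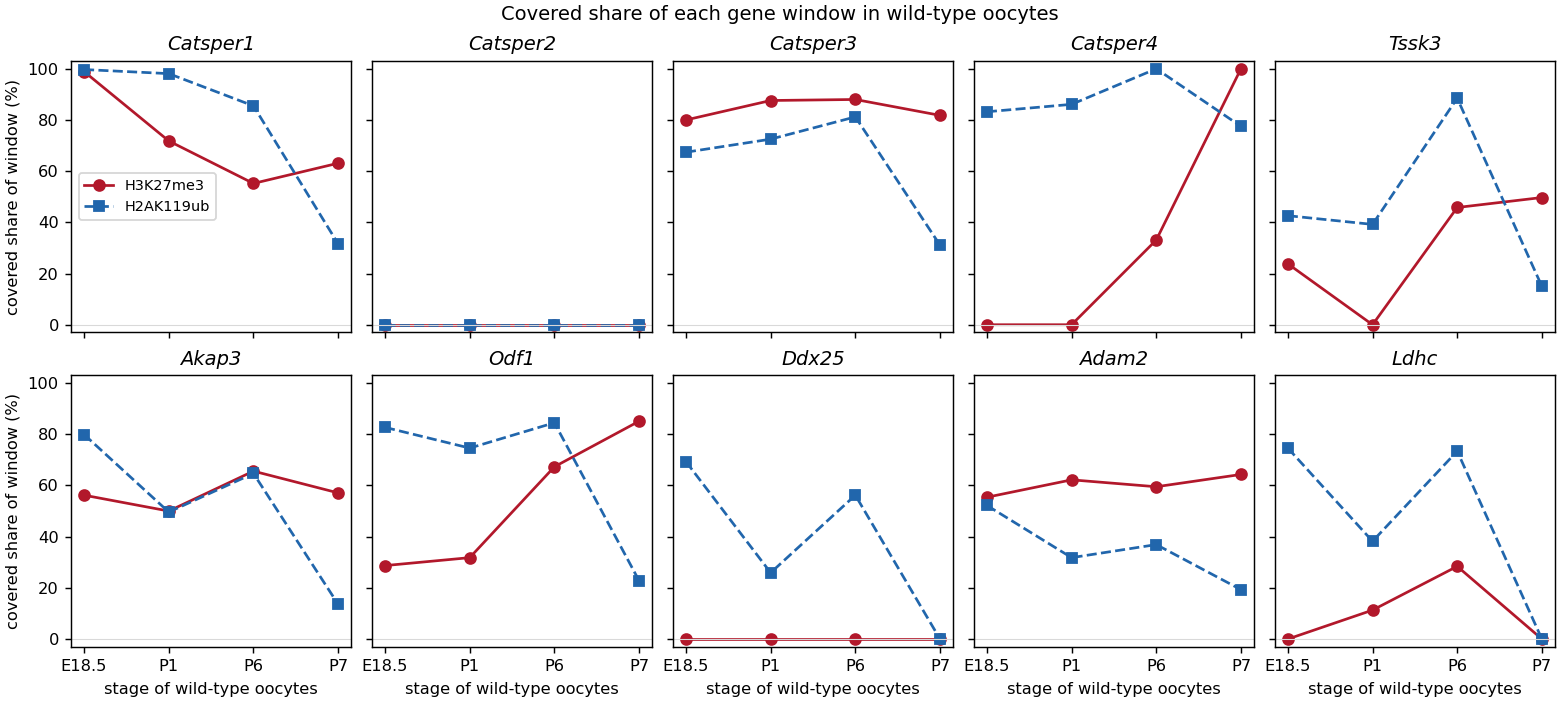
Share of each sperm gene window covered by peaks (%, vertical axis) at the 4 WT stages (horizontal axis), red circles H3K27me3 and blue squares H2AK119ub, 1 list per point with no error bar. H3K27me3 climbs to 100% at Catsper4 and 85.1% at Odf1 by P7, where H2AK119ub is lower than at P6 in the 9 genes with peaks.

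In PRC2cKO oocytes at P6, H3K27me3 fell at 4 of the 10 genes, against 8.81% of all genes, and rose at 0, against 0.791%. The 4 were Catsper4 (by 46.2 points), Odf1 (45.1), Akap3 (39.1) and Catsper1 (34.8), and Tssk3 and Ldhc went from 23.0% and 24.1% to 0%. Peaks touched 8 of the 10 genes in PRC2ctrl and 5 in PRC2cKO, where 55.2% and 48.7% of all genes were touched. The median change was -23.6 points over the 10 genes and 0 over all genes. The 10 genes started higher, with a median covered share in PRC2ctrl of 49.3%, against 4.56% over all genes. A gene under 25% in PRC2ctrl could not fall by 25 points, so these shares do not set the 10 genes apart. Between the WT and PRC2ctrl lists, 0 of the 10 genes rose or fell, against 2.04% and 1.49% of all genes, and the PRC2ctrl list enters both comparisons. WT and PRC2ctrl differed by 13.1 points at Catsper4, -5.52 at Odf1, -13.3 at Akap3 and 0.284 at Catsper1, all smaller than the change in PRC2cKO, while Tssk3 differed by -22.8 points between the controls and by -23.0 in PRC2cKO. With the H3K27me3 lists trimmed to the 428.6 Mb of PRC2cKO, 2 of the 4 falls remained (Catsper1 and Odf1). This kept 22012 of 53667 peaks in PRC2ctrl and all 49615 in PRC2cKO, so a difference in total covered length cannot show. Catsper4 then went from 23.7% to 0%, and Akap3 from 24.9% to 13.2%. Under that trimming the WT and PRC2ctrl lists also differed by 2 falls, at other genes, Akap3 (58.6% to 24.9%) and Ldhc (28.4% to 0%). Catsper1 and Odf1 differed by 0.284 and -5.52 points between these trimmed controls. Catsper3 and Adam2, at 91.2% and 54.2% in PRC2cKO, were not called.

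H2AK119ub in the same PRC2cKO oocytes fell at 1 gene, Ddx25 (by 44.0 points), and rose at 0, where 6.81% and 1.64% of all genes did. Peaks touched 9 of the 10 genes in both lists, against 71.0% of all genes in PRC2ctrl and 69.7% in PRC2cKO. Catsper4 and Catsper1 differed by -24.2 and -22.7 points, just under the 25 required. From WT to PRC2ctrl, the 2 control lists, Catsper3, Tssk3 and Ldhc fell by 29.6, 37.2 and 39.3 points and 0 genes rose, against 18.6% and 1.0% of all genes. The change of Ddx25 between these controls was -2.91 points, and PRC2ctrl enters both comparisons. At equal covered length Ddx25 was at 0% in both PRC2ctrl and PRC2cKO, while Catsper1, Catsper4 and Tssk3 fell and Ldhc rose. The difference between the controls then turned, with 4 rises from WT to PRC2ctrl (Catsper1, Tssk3, Akap3 and Odf1) and 1 fall (Ldhc).

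In PRC1cKO oocytes at P6, H3K27me3 fell at 1 gene, Tssk3 (48.4 points), and rose at 0, against 4.35% and 2.69% of all genes. Peaks touched 8 of the 10 genes in PRC1ctrl (55.0% of all genes) and 5 in PRC1cKO (55.1%), with Catsper4, Tssk3 and Ldhc losing every peak. Catsper4 and Ldhc had 1.82% and 16.5% in PRC1ctrl. The same 3 genes had no H3K27me3 peak in PRC2cKO, a list that touched 48.7% of all genes. The share of all genes that lost every peak in either knockout or in both is not given here. The overlap of these 3 genes therefore has no background. The PRC1ctrl list, which enters both comparisons, was itself lower than WT at Catsper4 (by 31.3 points) and Akap3 (25.1), with 0 rises, against 3.65% and 2.28% of all genes. At equal covered length Akap3 and Ldhc were lower in PRC1ctrl than in WT, Tssk3 was higher (22.2% and 48.4%), and Akap3 rose from 12.9% to 55.5% in PRC1cKO. The fall of Tssk3 in PRC1cKO was kept with the gene span alone, around the start site and under both trimmings.

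At P7 the PRC1 pair gave calls in both directions. H3K27me3 fell at Catsper4 (48.0 points) and rose at Tssk3 (33.9 points) and Catsper3 (30.7 points), while 8.6% of all genes fell and 4.92% rose. Around the start site alone, 2.5 kb to each side, Catsper4 went from 66.3% to 41.7% and missed the call. Peaks touched 7 of the 10 genes in both lists, against 54.0% in PRC1ctrl and 54.6% in PRC1cKO. Tssk3 in PRC1ctrl was itself 30.8 points under WT at P7, the only call of 10 between these 2 controls, where 7.77% of all genes fell and 0.603% rose. Tssk3 had 52.9% in PRC1cKO and 49.7% in WT, and Catsper3 in PRC1cKO (87.8%) lay nearer to WT (81.8%) than to PRC1ctrl (57.1%). From P6 to P7 within PRC1ctrl, Catsper4 and Akap3 rose (89.0 and 27.5 points) and Tssk3 and Catsper3 fell (29.4 and 25.7), against 7.32% and 8.86% of all genes. In WT, Akap3 had 65.6% at P6 and 57.1% at P7, without a call.

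**Figure D4:**
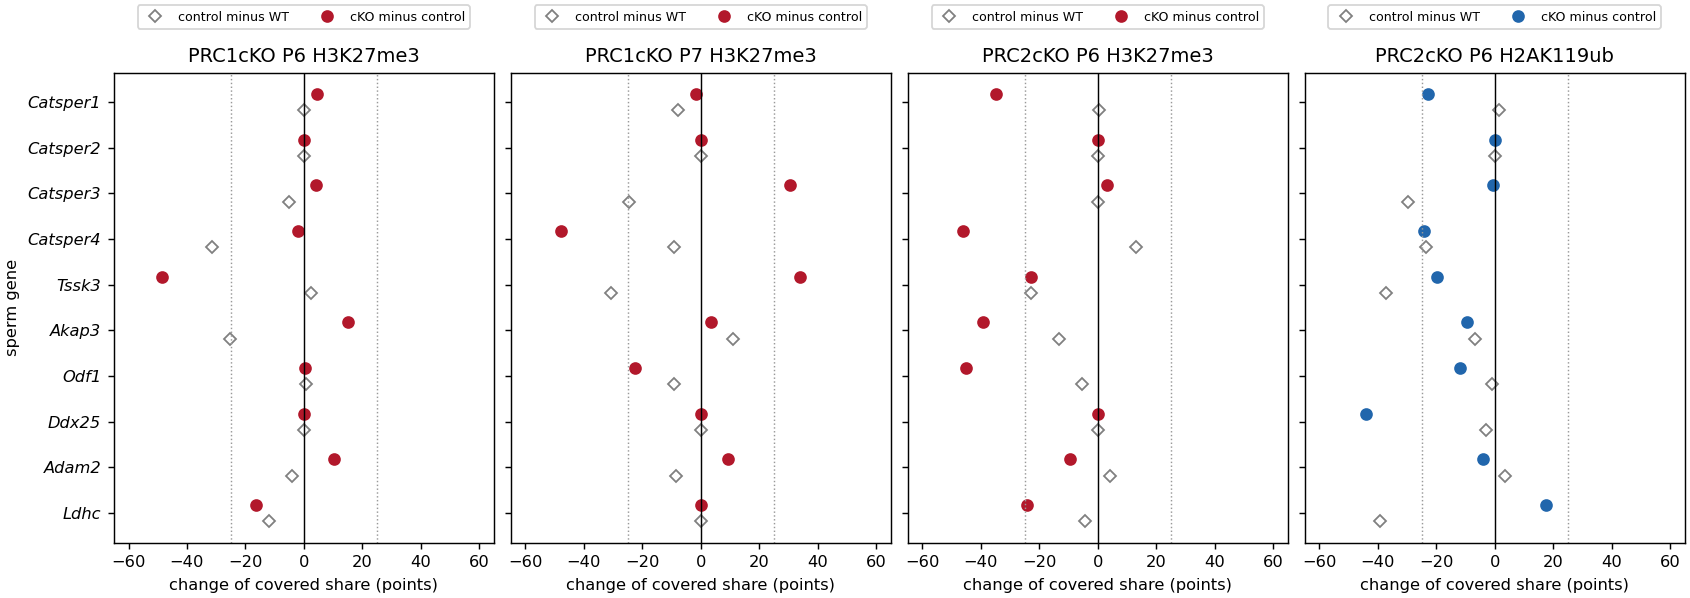
Difference in covered share (percentage points, horizontal axis) for each sperm gene (rows) between knockout and control (filled circles) and between control and WT of the same stage (open diamonds), 1 panel per comparison; dotted lines mark 25 points. In the PRC2cKO panel for H3K27me3, 4 circles lie beyond -25 and 0 diamonds do, while in the other panels circles and diamonds reach past the line at 1 to 3 genes each.

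To set the 10 genes among others of sperm, 109 further genes in 11 functional groups were read by the same rule (several are neighbours that share a peak, such as Prm1, Prm2, Prm3 and Tnp2). H3K27me3 touched 77, 77, 78 and 84 of the 109 at the WT stages (70.6%, 70.6%, 71.6% and 77.1%, against 54.5 to 59.6% of all genes). H2AK119ub touched 96, 94, 93 and 83 of them (88.1%, 86.2%, 85.3% and 76.1%). The shares of all genes were 78.2%, 71.4%, 76.7% and 62.2%. Their H3K27me3 rose and fell at 8 and 9 genes from P1 to P6 (4.26% and 2.74% of all genes), and at 14 and 3 from P6 to P7 (11.7% and 5.16%). The largest rise at the second step was at Catsperg2, an auxiliary subunit of the same sperm channel, by 77.6 points to 94.1%, followed by Papolb, a testis poly(A) polymerase, by 70.1 points from 0%. In the CatSper group of 7 auxiliary subunits, Catsperg2 was the 1 that rose. H2AK119ub fell at 62 of the 109 from P6 to P7 and rose at 1, where 43.1% and 0.151% of all genes did. The median share at P6 was 58.3% over the 109, against 35.7% over all genes. Over the 11 groups the falls ran from 5 of 13 ADAM family and chaperone genes to 5 of 6 genes of the kinase group. The 109 were not read at equal covered length, under which the 10 genes had 2 falls in place of 7. Prm1, a protamine gene, fell by 96.1 points and Tssk5, a kinase relative of Tssk3, by 98.9 points.

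The group nearest to Tssk3 holds 6 genes, Tssk1, Tssk2, Tssk4, Tssk5, Tssk6 and the kinase substrate Tsks. At WT P6 H3K27me3 touched 2 of these 6, where 56.7% of all genes were touched. It also touched 9 of 12 fibrous sheath and outer dense fibre genes, 10 of 11 axoneme genes and 7 of 11 spermatid chromatin genes. In PRC2cKO, H3K27me3 fell at 14 of the 109 and rose at 1, against 8.81% and 0.791% of all genes. The number touched was 81 in PRC2ctrl and 67 in PRC2cKO, against 55.2% and 48.7% of all genes. From WT to PRC2ctrl it rose at 4 of the 109 and fell at 1, against 2.04% and 1.49% of all genes. The falls in PRC2cKO were 5 of 12 fibrous sheath and outer dense fibre genes, led by Odf4 (71.9 points, to 22.9%). The others were 3 of 11 spermatid chromatin, 3 of 13 ADAM family and chaperone, 2 of 11 axoneme and 1 of 5 glycolysis genes. There were 0 in the other 6 groups. Odf4 was itself 39.4 points higher in PRC2ctrl (94.7%) than in WT (55.3%). The channel subunits, with 0 calls, went from 7 of 7 touched (median share 20.0%) in PRC2ctrl to 4 of 7 (3.37%) in PRC2cKO. The kinase group, also with 0 calls, had 2 of 6 touched in both lists, with a median share of 0%. A gene under 25% in the control could not fall by 25 points. H2AK119ub fell at 14 of the 109 and rose at 0 in PRC2cKO, against 6.81% and 1.64% of all genes, led by Gtsf1l (73.3 points). Gtsf1l was itself 29.6 points higher in PRC2ctrl (75.4%) than in WT (45.8%). From WT to PRC2ctrl, H2AK119ub fell at 22 of the 109 and rose at 2, against 18.6% and 1.0% of all genes. The PRC2ctrl list enters both comparisons. In PRC1cKO, H3K27me3 rose and fell at 7 and 6 of the 109 at P6 (2.69% and 4.35% of all genes). At P7 it rose and fell at 1 and 15 (4.92% and 8.6%), where Catsperg2 fell by 79.6 points. From WT to PRC1ctrl it rose and fell at 3 and 2 at P6 (2.28% and 3.65%). The same controls at P7 gave 1 rise and 13 falls (0.603% and 7.77%).

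By the smallest mean difference in covered share over the 16 lists, each gene with peaks was also paired with its most similar genes of the genome. Catsper4 was closest to Alpl (4.33 points), on the same chromosome, and to Kirrel (8.35). Ddx25 was closest to Gm38425 (2.38) and Eci1 (2.39), and Catsper3 to Zfp536 (5.93) and Cavin1 (6.1). For Ldhc they were Hmgn1 (6.36) and Fbxl19 (6.55), for Adam2 Gjd2 (6.59) and Nipal1 (6.85), and for Odf1 Siah3 (6.62) and Ildr1 (7.73). Akap3 was nearest to Gucy2c (7.62) and Elapor1 (8.71), and Catsper1 to Card14 (8.62) and Gm29735 (9.92). Tssk3 had no gene nearer than Tnn (11.2) and Lcp2 (11.3). The order of likeness is a description.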

How the data were processed

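CUT&Tag for H3K27me3 and H2AK119ub was done in 32 mouse oocyte samples (16 groups of 2, 150 bp reads), and the authors deposited 1 peak list per group. The submitters' processing notes name SAMtools, deepTools, Picard 3.0.0, Bowtie2 and Trim Galore 0.6.10, and the builds GRCm38, mm10 and dm6. Drosophila S2 cells were added per the labels' protocols. How peaks were called, whether S2 reads set a scale and how samples were pooled is not given in the sources used here. In each list, the deposited total signal (4th column) is the authors' own value, as is the highest signal (5th column), treated as a score because its scale is not stated. Both were read as such from their values and were used only within a list. Read depth is unknown.

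Groups followed the sample titles, and peak files were matched to groups by those titles. Genes came from RefSeq GRCm38.p6 (19 autosomes, X and Y). A gene was touched by a peak with at least 1 bp of overlap in its window (span plus 5 kb each side), and rose or fell at a change of at least 25 percentage points of covered share. All 10 genes, the genes overlapping their windows, the 2 most similar genes for each, and the 2 largest rises and 2 largest falls of the other sperm genes in each comparison could be named. Of 111 other sperm genes listed, 109 were in the annotation. The members and lists were chosen with earlier results of these data known. Alternatives were the gene span alone, 2.5 kb to each side of the start site, the peaks above the median total signal of their list, all lists of a mark trimmed to equal covered length, at least 500 bp covered, and a change of 50 points. Calculations used Python 3.11.15, NumPy 2.4.6, pandas 2.3.3, SciPy 1.17.1 and matplotlib 3.10.9, and the overlap code was tested on simulated data.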

Additional observations from a re-analysis of the deposited data

Results flagged for a closer look

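Tssk3 differed between the stages of the PRC1 knockout. H3K27me3 covered 48.4% of its window in PRC1ctrl and 0% in PRC1cKO at P6, and 19.0% and 52.9% at P7. The knockout difference was thus -48.4 points at P6 and 33.9 points at P7, 82.3 points apart and opposite in sign. PRC1ctrl itself was 2.57 points above WT (45.8%) at P6 and 30.8 points under WT (49.7%) at P7. The PRC1cKO share at P7 was thus near that of WT. With 1 list per group the difference between the stages was not tested.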

How the results depend on the processing

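No paired analysis was possible because each group has 1 peak list and the lists carry no replicate numbers, and for the same reason no replicate could be left out. Counts are members of the 10. At least 500 bp covered left all 16 counts of touched genes within 1.5 times. At 50 points, no call was left except the 7 falls of H2AK119ub from P6 to P7 and the rise of Catsper4 in H3K27me3 from P6 to P7 (in WT and in PRC1ctrl): 0 fell in PRC1cKO at P6 and P7, in PRC2cKO for either mark, from E18.5 to P1 for either mark and for H3K27me3 from P6 to P7, and 0 rose in PRC1cKO at P7 and from P1 to P6 for either mark.

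At equal covered length, falls numbered 3 (H2AK119ub) and 2 (H3K27me3) in PRC2cKO, and for WT H2AK119ub 1, 2 and 2 at the 3 steps. Rises numbered 1 in PRC1cKO at P6, 1 in PRC2cKO for H2AK119ub, 2, 1 and 1 for WT H2AK119ub at the 3 steps, and for WT H3K27me3 1 from E18.5 to P1 and 2 from P6 to P7. H2AK119ub touched 5, 5 and 3 genes at E18.5, P1 and P6. Between WT and PRC2ctrl, 2 fell for H3K27me3, and 4 rose and 1 fell for H2AK119ub, in place of 0, 0 and 3. Between WT and PRC1ctrl at P6, 1 rose in place of 0. With the stronger peaks by median total signal, 3 (H2AK119ub) and 2 (H3K27me3) fell in PRC2cKO, 2 fell between WT and PRC2ctrl for H3K27me3, and 1 rose in PRC1cKO at P6, with 1 and 2 rising for WT H3K27me3 from E18.5 to P1 and from P6 to P7.

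With the gene span alone, 2 fell in PRC1cKO at P7, 3 in PRC2cKO for H2AK119ub and 2 for WT H3K27me3 from E18.5 to P1. Rises were 1 in PRC1cKO at P6, 1 for WT H2AK119ub from E18.5 to P1 and 0 from P1 to P6. Around the start site only 7 genes could be read: 3 fell in PRC1cKO at P6, 0 at P7 and 3 in PRC2cKO for H2AK119ub. Rises there were 1 in PRC2cKO for each mark, 5 for WT H2AK119ub from P1 to P6 and 1 for WT H3K27me3 from E18.5 to P1. H3K27me3 touched 2, 2, 4 and 3 of the 7 over the WT stages, 3 and 1 in PRC1ctrl and PRC1cKO at P6, 2 and 4 at P7, and 4 and 1 in PRC2ctrl and PRC2cKO. H2AK119ub touched 4 at P1, 3 at P7, and 4 and 3 in PRC2ctrl and PRC2cKO. Counts stayed within 1.5 times in 26 cases and moved in 20 at equal covered length, 38 and 8 with the stronger peaks, 39 and 7 with the gene span, 20 and 26 around the start site, and 15 and 15 at 50 points. The cause was not tested, beyond the fewer peaks kept by trimming and the fewer genes around the start site.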
